A study of Mus musculus with 6 samples.

Results

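Cell cycle and proliferation genes were examined as a set of 50 mouse genes, chosen by name from the phases and machinery of cell division. The choice was made with earlier results of these data known. All 50 were among the 24348 genes of the count table, and all 50 passed the filter of at least 10 counts in at least 3 libraries. RNA had been sequenced from fibroblasts sorted from the digested synovium, the tissue lining the joint cavity, of adult wild-type C57BL/6 mice. In the IC group (n = 3 libraries), mice had been given immune complexes into a vein, and in the vehicle group (n = 3 libraries) the control injection. In the study's protocol the complexes were ovalbumin (OVA) bound by a rabbit polyclonal antibody to OVA. The study used mice of both sexes. The number of mice behind a library, their sex and the time from injection to collection were not given per library in the sources used here, so p-values measure the spread between libraries, which may be technical in part. The comparison asked whether IC in the circulation changed the expression of division genes in these fibroblasts.

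A cell enters the division cycle when D-type cyclins activate CDK4 and CDK6, which phosphorylate the retinoblastoma (Rb) protein and release E2F transcription factors. E2F factors switch on the genes for DNA licensing and replication, and a later wave that depends on FOXM1, MYB-type factors and the MuvB complex switches on the genes of mitosis. CDK inhibitors such as p21 (Cdkn1a) and p27 (Cdkn1b) hold cells in a resting state. Fibroblasts of the healthy synovium are known as slowly dividing cells.

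The promoters of the 2 waves can be read from sequence, and 8 of them are printed here because mitosis genes moved together between libraries and replication genes varied less. RefSeq promoter entries (GRCm38.p6, 250 bases before to 50 bases after a transcription start) were matched by symbol for 38 of 50 members. The motifs searched, on both strands, were the CHR element of late genes (TTTGAA, or TTCAAA on the other strand), the CCAAT box bound by NF-Y (CCAAT or ATTGG) and an E2F element in 4 forms (TTTCCCGC, TTTCGCGC, TTTGCCGC or TTTGGCGC, and their reverse complements). Matches of different motifs shared bases in 1 of the 45 member entries. Each line runs 5′ to 3′ from 110 bases before the start to the 20th base of the transcript, with matching letters in capitals. The first 4 belong to genes of mitosis, with CHR and CCAAT letters. Top2a lies at chr11:99024170-99024299 on the minus strand, Cenpf at chr1:189688067-189688196 on the minus strand, Cdc20 at chr4:118437324-118437453 on the minus strand and Kif11 at chr19:37376272-37376401 on the plus strand.
Top2a: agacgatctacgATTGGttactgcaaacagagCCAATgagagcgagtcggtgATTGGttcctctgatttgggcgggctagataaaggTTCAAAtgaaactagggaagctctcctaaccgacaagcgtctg
Cenpf: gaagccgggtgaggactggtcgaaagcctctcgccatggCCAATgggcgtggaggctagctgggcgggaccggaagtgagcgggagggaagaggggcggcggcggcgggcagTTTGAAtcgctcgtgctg
Cdc20: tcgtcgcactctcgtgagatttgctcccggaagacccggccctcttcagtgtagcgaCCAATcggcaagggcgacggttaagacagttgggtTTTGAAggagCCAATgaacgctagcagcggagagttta
Kif11: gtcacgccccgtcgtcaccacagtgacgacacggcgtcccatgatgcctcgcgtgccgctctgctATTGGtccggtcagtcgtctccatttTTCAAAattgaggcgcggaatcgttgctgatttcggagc
The next 2 belong to genes with E2F letters, Mcm6 at chr1:128359686-128359815 on the minus strand and Rbl1 at chr2:157204515-157204644 on the minus strand. The last 2 hold a CCAAT box and neither of the other motifs in the forms searched. Other forms of an E2F element were not searched, so a promoter without a match may still hold one. They are Pcna at chr2:132253161-132253290 on the minus strand and Cdkn1b at chr6:134920291-134920420 on the plus strand.
Mcm6: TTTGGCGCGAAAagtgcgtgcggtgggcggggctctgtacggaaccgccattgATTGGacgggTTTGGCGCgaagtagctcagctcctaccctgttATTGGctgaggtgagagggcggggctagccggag
Rbl1: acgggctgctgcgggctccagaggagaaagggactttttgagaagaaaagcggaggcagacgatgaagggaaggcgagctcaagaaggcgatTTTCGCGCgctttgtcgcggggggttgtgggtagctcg
Pcna: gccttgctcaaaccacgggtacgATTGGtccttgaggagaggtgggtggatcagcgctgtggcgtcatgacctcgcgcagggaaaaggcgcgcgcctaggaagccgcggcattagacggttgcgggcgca
Cdkn1b: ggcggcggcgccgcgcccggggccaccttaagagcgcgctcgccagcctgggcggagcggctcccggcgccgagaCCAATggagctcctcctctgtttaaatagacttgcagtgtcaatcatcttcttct

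CHR letters were found in the promoters of 10 of the 13 mitosis members with an entry (76.9%), against 14.5% of the 12282 tested genes with an entry and 17.9% of all 32851 promoters. Among other genes of G2 phase and mitosis they were in 39 of 58 (67.2%). E2F letters were in 5 of the 7 licensing and replication members with an entry (71.4%) and in none of the 13 mitosis members, against 4.34% of tested genes and 2.26% of all promoters. Other S phase genes held them in 18 of 47 promoters (38.3%). The CCAAT box was common everywhere, in 12 of 13 mitosis promoters, 6 of 7 licensing and replication promoters and 42.3% of tested genes (37.4% of all promoters). In the stretches printed, the CHR letters of Top2a, Kif11 and Cdc20 began 23, 19 and 18 bases before the start, and those of Cenpf 2 bases after it. The position varied among the other mitosis members, with matches 116 and 98 bases before the start in Mki67 and 32, 40 and 30 bases after it in Aurka, Bub1b and Plk1. These matches are letters in a window and were not tested for factor binding.

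**Figure D1:**
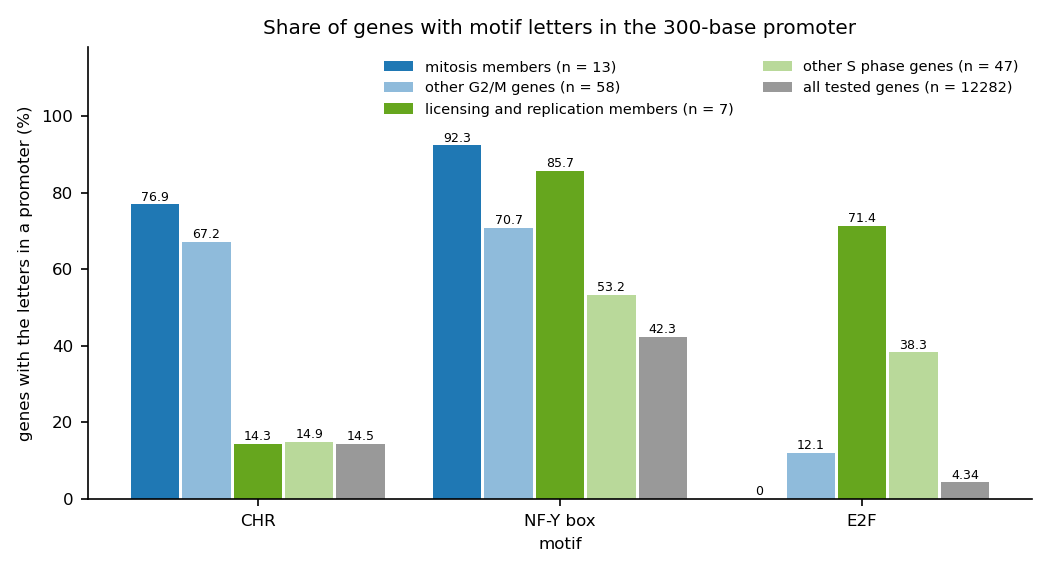
Share of genes (%, y axis) with the letters of the CHR, NF-Y (CCAAT) or E2F motif in a RefSeq promoter, for mitosis members, other G2 and mitosis genes, licensing and replication members, other S phase genes and all tested genes, with n in the key. CHR letters stand at 76.9% of mitosis members against 14.5% of all tested genes, and E2F letters at 71.4% of licensing and replication members against 4.34%.

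Total counts were 40114331 to 56714304 per library, with vehicle replicate 1 the deepest, then IC replicate 3, and IC replicate 1 and vehicle replicate 3 the shallowest. Vehicle replicate 1 also stood apart in Gm42418, a gene over a ribosomal RNA repeat, with 0.964% of its counts against 0.375% to 0.553% in the other libraries, and in mitochondrial genes, with 0.76% against 0.425% to 0.568%. All 12 fibroblast markers were tested, and added together they made up 45220 to 47010 CPM, a count scaled to the library total, in IC and 46050 to 56000 CPM in vehicle. Markers of muscle satellite cells, of which 12 of 12 were in the table, summed to 133.5 to 179.7 CPM in IC and 238.7 to 321.2 in vehicle, without overlap, and skeletal muscle markers (14 of 14) to 16.2 to 33.1 and 28.8 to 80.9. Endothelial markers (12 of 12) summed to 223.8 to 310.4 CPM in IC and 307.9 to 367.6 in vehicle, and the 10 of 14 macrophage markers in the table to 32.7 to 52.6 and 40.9 to 53.5. Most of the macrophage sum was Cd68, at 21.9 to 31.4 CPM over all libraries, and Lyve1, at 8.13 to 18.6. Csf1r (0.728 to 1.57 CPM) and Mrc1 (0.611 to 1.59) were above 0 in every library. Cx3cr1 was at 0 in 2 libraries, C1qc in 2 and C1qb in vehicle replicate 2, and markers not in the table were left out. In sorted bulk RNA, fewer cells of a type and less RNA per cell cannot be told apart. The sum of chondrocyte markers (10 of 10) was higher in IC without overlap, at 797.9 to 898.3 CPM against 513.8 to 745.6. Most of this sum was Comp, at 621.6 to 719.5 CPM in IC and 366.3 to 592.8 in vehicle. Of the 9 tested chondrocyte markers, 4 had a log2 fold change above 0 and 5 below, with a median of -0.002. The sum of mural cell markers (11 of 12) was lower in IC by a narrow gap, at 505.7 to 627.3 CPM against 628.9 to 678.7. This list shares Des with the satellite cell list, at 5.70 to 18.3 CPM in IC and 24.2 to 40.3 in vehicle. Of the 11 tested mural markers, 2 had a log2 fold change above 0 and 9 below. The 3 of 11 lymphocyte markers in the table summed to 3.55 to 4.93 CPM in IC and 7.18 to 10.5 in vehicle. Among them Ighm was at 0.653 to 1.56 CPM in IC and 3.99 to 5.98 in vehicle, while Cd4 and Cd79a overlapped between groups. The part of these marker differences in the results below was not tested.

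The first result was the level of each member. Levels are given as TPM, a per-length scale computed here from counts and exon lengths, on which most inhibitors and regulators of the entry into the cycle lay above genes of mitosis. Cdkn1a, which encodes the CDK inhibitor p21, had the highest mean level at 373 TPM (range over 6 libraries 316 to 408). It was followed by Pcna, the sliding clamp of DNA polymerase, at 199 TPM (187 to 207), and by Cdkn1b, which encodes p27, at 123 TPM (110 to 138). Cdkn1a and Pcna, and Pcna and Cdkn1b, did not overlap in range. Ccnd2 followed at 98.5 TPM (87.3 to 108), Cdkn1c, which encodes the inhibitor p57, at 71.8 TPM (66.2 to 75.4) and Cdk4 at 61.2 TPM (52.2 to 68.2). The ranges of Cdkn1c and Cdk4 overlapped. Of the 49 pairs of neighbours in the order of levels, 43 overlapped in range, and the 6 that did not all lay between Cdkn1a and Ccnd3, the eighth member. Only these 6 members had a mean over 50 TPM, while 22 of 50 had a mean under 5 TPM.

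The 16 mitosis members had a median level of 1.79 TPM, from Cenpf at 0.42 to Cdc20 at 12.7, against 11.0 TPM over the 34 other members and 12.1 TPM over all tested genes. Cdc20 is the activator of the anaphase-promoting complex. Mki67, the gene of the Ki-67 proliferation antigen, was at 6.31 TPM (range 1.56 to 14.7). Top2a, the topoisomerase that untangles sister DNA, was at 3.20 TPM (0.774 to 6.32). Cdk1, the mitotic kinase, had 0.917 TPM and its partner Ccnb1 ranged from 0.213 to 2.07 TPM. Aurkb was at 0 counts in vehicle replicate 2, and Bub1 in IC replicate 1 and vehicle replicate 3, which allows a level of up to 0.0575, 0.0688 and 0.0748 CPM (3 counts, counting error only).

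**Figure D2:**
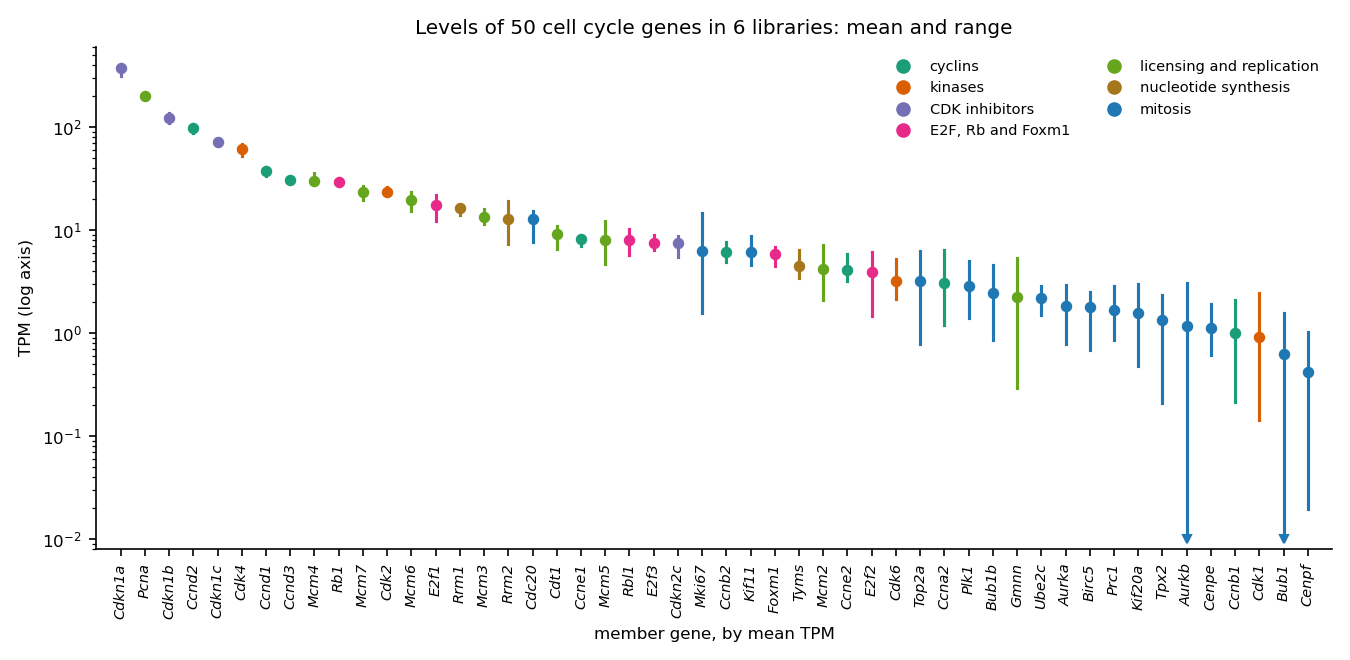
Level of each of the 50 members (TPM, log axis) as the mean (point) and range (line) over the 6 libraries, colored by role; arrowheads mark members with a library at 0. Cdkn1a, Pcna, Cdkn1b, Ccnd2, Cdkn1c and Cdk4 stand on the left, from 373 TPM down, and mitosis genes with long ranges fill the right, down to 0.42 TPM.

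The second result was the comparison of IC with vehicle. None of the 50 members passed an adjusted p of 0.05 in DESeq2, while 2.10% of all 19925 tested genes did (419 genes). edgeR's quasi-likelihood test also called none of the 50, against 0.186% of all genes (37 genes). At an unadjusted p under 0.05, DESeq2 gave 2 members, Cdkn1b and Cenpf, against 9.80% of all genes, and edgeR gave 1, Cdkn1b, against 9.64%. The smallest adjusted p of any member was 0.184 (DESeq2), for Cdkn1b. The fitted log2 fold change was above 0 for 20 members and below 0 for 30, with a median of -0.06 against -0.002 over all tested genes. Without vehicle replicate 1 the count above 0 was 36, and without vehicle replicate 3 it was 13, so the balance of signs rested on single libraries.

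How closely a change was bounded differed by role. The 95% interval of the fold change lay within 1.5-fold in either direction for 16 of 50 members, all of them outside mitosis, and within 2-fold for 33. Of the 34 members outside mitosis, 30 were bounded within 2-fold. Of the 16 mitosis members this held for 3, so changes over 2-fold were not excluded for most mitosis genes (median SE 0.53 on the log2 scale). The intervals of Pcna, Ccnd3, Ccnd2, Cdk2, Rb1, Rrm1 and Cdkn1c all lay within 1.5-fold.

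**Figure D3:**
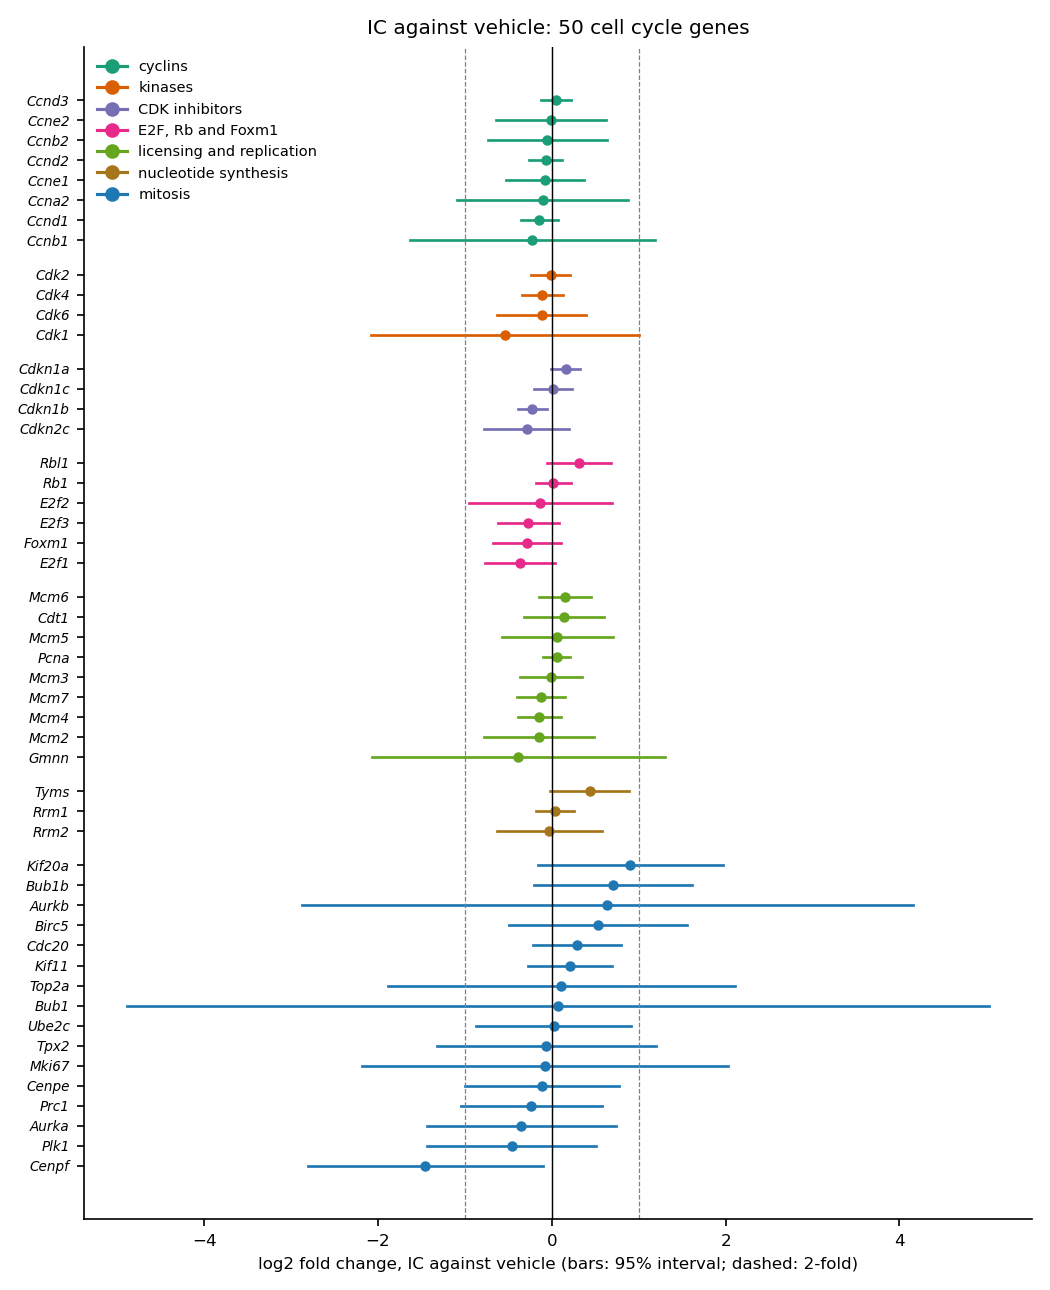
Log2 fold change of IC against vehicle (x axis, DESeq2) with its 95% interval for all 50 members, grouped and colored by role, with dashed lines at 2-fold. Intervals are short for D-type cyclins, most CDK inhibitors and most replication genes and long for mitosis genes, and those of Cdkn1b and Cenpf alone lie off 0 without adjustment for the number of genes.

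Cyclins and their kinases did not pass the test. Among 8 cyclins, 1 had a log2 fold change above 0 and 7 below, from -0.22 (Ccnb1) to 0.05 (Ccnd3), with a median of -0.07. Ccnd1, a D-type cyclin that growth signals induce, had the smallest p. Its normalized counts were 1754, 1863 and 1960 in IC replicates 1 to 3, and 2117, 2182 and 1852 in vehicle, and the groups overlapped. Its log2 fold change was -0.14 (SE 0.11, adjusted p = 0.734, DESeq2). Of the other cyclins, Ccnd2 and Ccnd3 partner CDK4 and CDK6, Ccne1 and Ccne2 drive the start of replication with CDK2, Ccna2 acts in S phase and G2, and Ccnb1 and Ccnb2 drive mitosis. Ccnd2 varied 1.23-fold from the lowest to the highest library and Ccnd3 1.13-fold. Ccna2 varied 5.19-fold and Ccnb1 9.67-fold, with vehicle replicate 1 the highest library for both. The log2 fold changes of all 4 kinases were below 0, from -0.54 (Cdk1, SE 0.79) to -0.01 (Cdk2, SE 0.11). Cdk4 had the smallest p among them, with normalized counts of 1875, 2041 and 2500 in IC and 2232, 2228 and 2466 in vehicle. Its log2 fold change was -0.11 (SE 0.12, adjusted p = 0.869, DESeq2). Cdk6, the other partner of D-type cyclins, reached 799.4 normalized counts in vehicle replicate 1 and 339.1 to 518.9 in the other libraries.

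The CDK inhibitors held the member with the smallest p and 3 of the 4 members whose groups did not overlap. Cdkn1b had 5651, 6007 and 5659 normalized counts in IC replicates 1 to 3 and 6139, 6990 and 7107 in vehicle, so all IC values lay below all vehicle values. The means were 5772 ± 203.5 and 6745 ± 528.3 (SD, n = 3). The log2 fold change was -0.22 (SE 0.09, adjusted p = 0.184, DESeq2; adjusted p = 0.351, edgeR), which did not pass the threshold. Without vehicle replicate 1, the lowest vehicle value, the adjusted p was 0.00864 and the log2 fold change -0.29, and with each of the other libraries left out it was 0.253 to 0.589 (DESeq2). Cdkn1b lies at chr6:134920401-134925513 on the plus strand (GRCm38, GENCODE M21).

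Cdkn1a differed in the other direction. It had 15750, 15810 and 15290 normalized counts in IC and 12360, 14690 and 14910 in vehicle, with every IC value above every vehicle value. The log2 fold change was 0.16 (SE 0.09, adjusted p = 0.492, DESeq2). Its lowest vehicle value was again that of vehicle replicate 1. Without this library the log2 fold change of Cdkn1a was 0.08 (adjusted p = 0.716, DESeq2). With each of the other libraries left out it was 0.15 to 0.21. An unclassified transcript, AC167363.2, overlaps Cdkn1a on the opposite strand, and the use of strand in counting is not given in the sources used here. Cdkn2c, which encodes p18, had 163.1, 216 and 228.5 normalized counts in IC and 248.4, 228.6 and 267.5 in vehicle, a log2 fold change of -0.29 (SE 0.25, adjusted p = 0.782, DESeq2). Its highest IC value and lowest vehicle value differed by less than 1 count. For Cdkn1c the log2 fold change was 0.01 (SE 0.11), with overlapping groups. Pcna was the fourth member without overlap. In all, 4 of 50 members had groups that did not overlap, against 15.8% of all tested genes.

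Members of the E2F and Rb axis did not pass the test. E2f1, an activating E2F, had 426.4, 687.3 and 518.8 normalized counts in IC and 554.3, 790.6 and 757.5 in vehicle, with overlapping groups. Its log2 fold change was -0.36 (SE 0.21, adjusted p = 0.532, DESeq2). E2f3, also an activator, had a log2 fold change of -0.27 (SE 0.18) and Foxm1, the factor of the late wave, -0.29 (SE 0.20). Rbl1, which encodes the Rb relative p107, had a value of 0.31 (SE 0.19). Rb1 itself was at 1820 to 2104 normalized counts in every library, with a log2 fold change of 0.02 (SE 0.11). E2f2 was the most variable of the 6, at 79.3 to 328 normalized counts.

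The 9 licensing and replication members had a median log2 fold change of -0.01, from -0.38 (Gmnn) to 0.15 (Mcm6). Mcm2 to Mcm7 encode the 6 subunits of the replicative helicase, Cdt1 loads it onto DNA, and Gmnn encodes geminin, which blocks Cdt1 after replication has begun. Mcm4 had the smallest p of this role, with 1116, 1125 and 1190 normalized counts in IC and 1416, 1217 and 1158 in vehicle. The comparison gave a log2 fold change of -0.14 (SE 0.13, adjusted p = 0.796, DESeq2). Pcna had 5337, 5365 and 5602 normalized counts in IC and 5333, 5112 and 5249 in vehicle, and its log2 fold change was 0.06 (SE 0.08, adjusted p = 0.905, DESeq2). It was the member with the narrowest range, 1.10-fold from the lowest to the highest library. Gmnn, at 4.86 to 86.1 normalized counts, had the widest of this role at 17.7-fold.

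Among enzymes of DNA precursor synthesis, Tyms (thymidylate synthase) had 268.9, 426.9 and 346.8 normalized counts in IC and 257.5, 276.8 and 237.1 in vehicle. The lowest IC value lay within the vehicle range. The log2 fold change was 0.43 (SE 0.23, adjusted p = 0.485, DESeq2). Rrm1 and Rrm2, the subunits of ribonucleotide reductase, had log2 fold changes of 0.04 (SE 0.11) and -0.03 (SE 0.31).

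**Figure D4:**
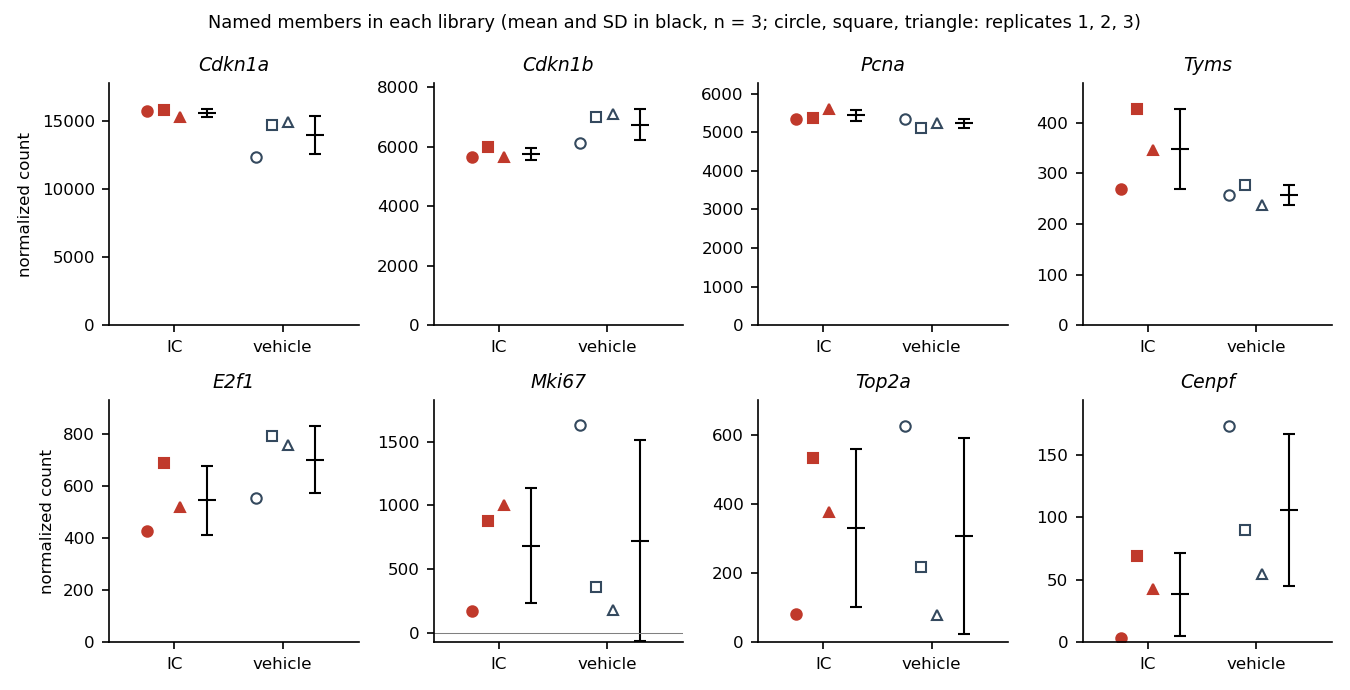
Normalized count (y axis) of 8 members in each library, with IC in filled red and vehicle in open blue symbols and the mean and SD in black (n = 3). Cdkn1a and Cdkn1b separate the groups in opposite directions without passing the test, and Pcna separates them by a narrow gap. The groups overlap for Tyms, E2f1, Mki67, Top2a and Cenpf.

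The mitosis members spread widely between libraries of the same group. Mki67 had 174.1, 877.5 and 1005 normalized counts in IC replicates 1 to 3 and 1628, 360.8 and 183.6 in vehicle. Its highest and lowest values thus differed 9.35-fold, and each group held a library under 200. The log2 fold change was -0.08 (SE 1.08, adjusted p = 0.996, DESeq2). Top2a had 83.8, 534.4 and 378.2 normalized counts in IC and 626.4, 218.2 and 79 in vehicle, in nearly the same order of libraries. The fitted log2 fold change was 0.11 (SE 1.02, adjusted p = 0.993, DESeq2). Cenpf, a large kinetochore protein, had the smallest p of the role, with 3.31, 69.2 and 43 normalized counts in IC and 173, 89.7 and 54.7 in vehicle. The log2 fold change was -1.46 (SE 0.69, adjusted p = 0.364, DESeq2) and the groups overlapped. IC replicate 1 had only 3 reads of Cenpf.

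Across the 16 mitosis members, 9 log2 fold changes were above 0 and 7 below, with a median of 0.05. Those above 0 were led by Kif20a, a motor of cytokinesis, at 0.90 (SE 0.54), Bub1b, a spindle checkpoint kinase, at 0.70 (SE 0.47), and Aurkb, the kinase of the chromosomal passenger complex, at 0.64 (SE 1.79). Birc5, which encodes survivin of the same complex, had 0.53 (SE 0.52), Cdc20 had 0.29 (SE 0.26) and the spindle motor Kif11 had 0.21 (SE 0.24). Those below 0 included the kinases Plk1 at -0.46 (SE 0.50) and Aurka at -0.35 (SE 0.56), and Prc1, which bundles microtubules of the central spindle, at -0.23 (SE 0.41). The kinetochore motor Cenpe and the spindle factor Tpx2 were at -0.12 (SE 0.45) and -0.06 (SE 0.64), and the ubiquitin enzyme Ube2c was at 0.02 (SE 0.46). Bub1, another checkpoint kinase, had a value of 0.07 with an SE of 2.53 and received no adjusted p. Without vehicle replicate 1, 14 of 16 lay above 0 (median 0.48), without IC replicate 1, 13 (0.37), and without IC replicate 2, 5 (-0.36).

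Summed over the 16 mitosis members, the libraries of IC replicates 1, 2 and 3 held 29.6, 78.4 and 65.5 CPM, and those of vehicle replicates 1, 2 and 3 held 99.4, 37.1 and 30.7 CPM. The high and low libraries were therefore found in both groups, and the sums spanned 3.36-fold. Sums of the other 6 roles spanned 1.14-fold (CDK inhibitors) to 1.32-fold (nucleotide synthesis). A sum weighs its most abundant members most, with Mki67 the most abundant of the mitosis members. Single members outside mitosis spanned up to 17.7-fold (Gmnn). The libraries kept nearly one order over the mitosis members, with a mean rank (1 being the highest) of 1.56 for vehicle replicate 1, 2.06 for IC replicate 2, 3 for IC replicate 3, 4.25 for vehicle replicate 2, 4.91 for vehicle replicate 3 and 5.22 for IC replicate 1. Vehicle replicate 1 was the highest library for 9 of the 16 and IC replicate 2 for 5. The 34 members outside mitosis gave the same order of libraries by mean rank, from 2.29 for vehicle replicate 1 to 4.76 for IC replicate 1. Vehicle replicate 1 was the highest library for 17 of these 34 (50%). For all 50 members, vehicle replicate 1 was the highest for 26 (52%), against 18.2% of all tested genes. This library was also the deepest and the highest in Gm42418 and mitochondrial counts, and the 2 libraries lowest in mitosis genes were the 2 shallowest. Depth and order did not match in the other libraries, since vehicle replicate 2, with 52166816 counts, held 37.1 CPM and IC replicate 2, with 45914945 counts, held 78.4 CPM. The part of depth and RNA quality in this order was not tested.

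The median ratio of the highest to the lowest library was 3.66 for the 14 mitosis members above 0 in every library, 1.53 for the other 34 members and 1.53 for the 18740 tested genes above 0 in every library. With Aurkb, Bub1 and the other genes at 0 in a library ranked as the largest, the medians were 4.44 for the 16 mitosis members and 1.59 for all genes. Mitosis members had low counts, which spread more by sampling. Set against the dispersion that DESeq2 expects at the same mean count, the median was 2.79 times the trend for mitosis members, 0.839 for other members and 0.616 for all genes. The within-group SD on the log2 scale had medians of 0.739, 0.199 and 0.231. The 15 members with CHR letters in a promoter had a median ratio of 3.42 and a median count of 153.5, and the 23 members with a promoter entry without them 1.58 and 531.8. Relative to the dispersion trend at the same mean count, the medians were 2.87 with CHR letters and 0.92 without. Of the 15 members with CHR letters, 10 were mitosis members, so this split largely repeats that by role. Birc5 and Cenpe, mitosis members without CHR letters, had ratios of 3.59 and 3.10. Bub1, also a mitosis member without them, ranged from 0 to 75.4 normalized counts. It had no ratio, so the median of 1.58 leaves it out. Members outside mitosis with CHR letters ranged from 1.42 (E2f3) to 17.1 (Cdk1). A link of the letters to the spread was not tested.

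**Figure D5:**
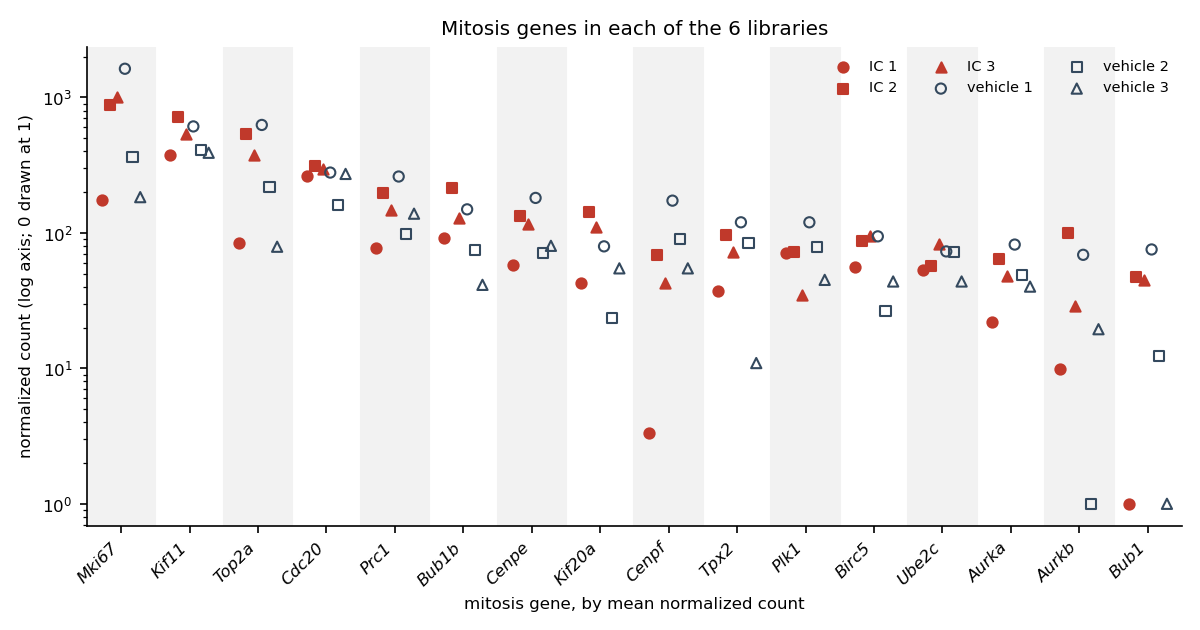
Normalized count (log axis, 0 drawn at 1) of the 16 mitosis members in each library, with IC in filled red and vehicle in open blue symbols. For 11 of the 16 genes vehicle replicate 1 and IC replicates 2 and 3 all stand above IC replicate 1 and vehicle replicates 2 and 3, so the order of libraries crosses the groups.

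Further genes of the same pathways were read from lists of textbook members. For comparison, 2.10% of all tested genes were called by DESeq2 and 0.186% by edgeR. An unadjusted p under 0.05 was given to 9.80% of all tested genes by DESeq2 and to 9.64% by edgeR. Of 58 other S phase genes, none was called (1 at an unadjusted p under 0.05 by DESeq2 and 1 by edgeR), with 32 above 0 and 26 below. Of 73 tested other genes of G2 and mitosis, none was called (2 by DESeq2 and 4 by edgeR at an unadjusted p under 0.05), with 36 above 0 and 37 below. Vehicle replicate 1 was the highest library for 40 of these 73 (54.8%) and for 23 of the 58 S phase genes (39.7%). The summed level of the G2 and mitosis list was 419 to 491.5 CPM in IC and 385 to 549.3 CPM in vehicle. Among 30 other antiproliferative genes, such as the BTG, FOXO and pocket protein families, none was called (5 by DESeq2 and 4 by edgeR at an unadjusted p under 0.05). Their summed level was 6647 to 6693 CPM in IC and 6123 to 6332 CPM in vehicle, without overlap. Of these genes, 16 had a log2 fold change above 0 and 14 below. Btg2, an antiproliferative factor induced by stress and chosen after its value was seen, had the smallest adjusted p of that list at 0.0615 (DESeq2), with a log2 fold change of 0.20.

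Among 30 targets of p53 other than Cdkn1a, 2 were called (6.67%, against 2.10% of all tested genes) and both fell. Trp53inp1, a p53-induced nuclear protein, had 1835, 2045 and 1746 normalized counts in IC and 2612, 2571 and 2489 in vehicle, without overlap. Its log2 fold change was -0.45 (SE 0.10, adjusted p = 0.00144, DESeq2; 0.0725, edgeR), and the call held with each of the 6 libraries left out in turn. Plk2, a kinase of the polo family, had 5272, 5053 and 5307 normalized counts in IC and 6277, 6610 and 5993 in vehicle. Its log2 fold change was -0.27 (SE 0.08, adjusted p = 0.0334, DESeq2; 0.178, edgeR), and 2 of the 6 fits without a library kept the call. The call of Plk2 was also lost with the replicate block (adjusted p = 0.182, DESeq2) and with 1 surrogate variable (adjusted p = 0.118, DESeq2). That variable mostly marked vehicle replicate 2, at 0.908 against -0.262 to -0.129 in the other libraries. Without this library the adjusted p of Plk2 was 0.153 (DESeq2). The median log2 fold change of this list was -0.04. Of 34 tested genes that feed growth signals into the cycle, 1 was called (2.94%, against 2.10% of all tested genes), Myc, which was named after its value was seen. Myc, a transcription factor that drives growth and cycle entry, had 12720, 12130 and 13940 normalized counts in IC and 10050, 10900 and 10050 in vehicle. It rose with a log2 fold change of 0.32 (SE 0.08, adjusted p = 0.00591, DESeq2; 0.135, edgeR), and the call was lost without vehicle replicate 3 (adjusted p = 0.0927, DESeq2).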

How the data were processed

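The 6 libraries were grouped by the labels (3 IC, 3 vehicle). Raw counts per gene were deposited by the authors, who trimmed reads with Trim Galore, aligned them to mm10 with HISAT2 and counted them with featureCounts. Versions, gene annotation and strand setting are not given in the sources used here, and the kit for total RNA libraries is named differently in the labels and in the methods. Of 50 members, 17 share exon bases with a gene on the opposite strand, so their counts are uncertain if strand was ignored. Among mitosis members these are Cdc20 (with Elovl1), Kif20a (Cdc23), Prc1 (Rccd1), Ube2c (Tnnc2, a skeletal muscle marker) and Plk1 (an unclassified transcript). The authors removed batch effects with sva without further detail.

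Tested were the 19925 genes that reached 10 counts in 3 or more libraries (the 4423 left out held 0.0429% of counts). IC was compared with vehicle by the Wald test of DESeq2 (version 1.42.0), the study's tool, with Benjamini-Hochberg adjustment over all genes and a threshold of 0.05. An adjusted p was missing for 3863 low genes and for 7 whose counts held an outlier. Normalized counts are counts divided by the size factor, intervals are 1.96 SE, and TPM used GENCODE M21 exon lengths (a single match for 98.0% of symbols). The alternatives were edgeR (version 4.0.16), TMM scaling, no filter, no independent filtering, a replicate block, 1 sva surrogate variable (version 3.50.0) and each library left out. The members and lists were chosen with earlier results of these data known. Named with values were called genes, the member of each role with the smallest p, Mki67, Top2a and Cdkn1a. Other genes named with values complete the account of each role.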

Additional observations from a re-analysis of the deposited data

How the results depend on the processing

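No member was called under any alternative that used all 6 libraries, and leaving out 1 library gave 0 to 1 member, the 1 being Cdkn1b without vehicle replicate 1. Over all genes, edgeR called 37 against 419 with DESeq2, and leaving out 1 library gave 282 to 671, the most without vehicle replicate 1. The cause was not tested. Same-numbered libraries deviated from their group means with correlations of -0.092, -0.164 and 0.025, so no shared deviation was seen. With 3 libraries a group, these values cannot decide whether the numbers pair the samples. With the replicate block, 320 genes and no member were called, and the log2 fold change of Mki67 turned from -0.08 to 0.49. That of Top2a was -0.09 with 1 surrogate variable, a fit that largely repeats the one without vehicle replicate 2. With 1 library left out, Mki67 ranged from -0.53 to 1.33 and Top2a from -0.42 to 1.16, and neither passed the threshold. The sign of the fold change was kept for all 50 members with edgeR, TMM scaling, no filter or no independent filtering, for 44 with the replicate block, for 47 with the surrogate variable and for 32 to 46 with a library left out. With 3 libraries a group, the 95% interval reached past 2-fold for 13 of 16 mitosis members, and the part of depth (40114331 to 56714304 counts) in this was not tested.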
